A study of Rattus norvegicus with 30 samples.

Results

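The Krüppel-like factors are zinc-finger transcription factors, and 9 of their genes were followed across 30 rat heart arrays: Klf2, Klf3, Klf4, Klf5, Klf6, Klf9, Klf10, Klf13 and Klf15. A probe was assigned to a gene when the transcript accession on the array matched that gene's rat symbol, and the brightest such probe stood for the gene. The 9 genes were taken from 26785 on the array, of which 18333 were measured well enough to be tested. Klf5 was the 1 of the 9 that was not.

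Each array held RNA from the left ventricle of 1 male Sprague Dawley rat aged 16 to 18 weeks. Of the 6 groups, with 5 biological replicates each, 3 came from rats fed a diet high in sucrose for 8 to 10 weeks (insulin resistant, by their labels) and 3 from chow-fed rats (insulin sensitive). Within each diet, the hearts of both perfused groups were arrested in cold buffer and then worked for 60 min outside the body at normal temperature and oxygen. The fuels in their buffer were hydroxybutyrate at 10 mmol/L, acetoacetate at 1 mmol/L and propionate at 2 mmol/L. It further held 25 mmol/L mannitol, a sugar alcohol that served as osmotic control, in the mannitol groups, or 25 mmol/L glucose in the glucose groups. Hearts of the third group, non-perfused, were cut out into ice-cold buffer and frozen at once. All rats received chloral hydrate as anaesthetic. Perfused and non-perfused hearts therefore differ in work, buffer and time outside the body at once, and these cannot be told apart.

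Members of this family bind GC-rich and CACCC sequences through zinc fingers at the end of the protein, and some activate while others repress. KLF2 and KLF4 are known from the endothelium, where blood flow induces them through the MEK5-ERK5-MEF2 cascade and where they raise nitric oxide synthase and thrombomodulin. KLF6 and KLF10 are known as early-response genes, KLF9 and KLF15 as genes that glucocorticoids induce. In heart muscle KLF15 is known for branched-chain amino acid and lipid use and for restraining hypertrophy.

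Values are log2 signals minus the 75th percentile of the same array, so that 0 is the level of that percentile. They compare arrays for 1 probe and not probes with each other. Between 48.8% and 75.4% of probes were well above background on an array, and no probe was saturated. Of the 5 slides 4 held arrays of every group, and the remaining slide held 1 array, replicate 1 of sucrose mannitol. Row 1 of the slides held the non-perfused arrays and those of chow mannitol, and row 2 the glucose arrays, so row cannot be told apart from glucose perfusion or from glucose against mannitol in chow hearts. Of the sucrose mannitol arrays 1 lay in row 1 and 4 in row 2, and in chow the mannitol and non-perfused arrays shared a row. The negative control spots were noisier on 4 arrays (replicate 2 of chow non-perfused, replicates 1 and 5 of sucrose non-perfused and replicate 5 of sucrose mannitol), with an SD above 8 intensity units. Both perfused groups of a diet were set against the same 5 non-perfused arrays, so their comparisons are not independent.

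Perfusion was the condition that separated these genes. Klf4, Klf6, Klf2 and Klf10 were 2.01 to 4.69 times as high in perfused as in non-perfused hearts in each of the 4 comparisons, with no overlap of the arrays. Klf13, Klf9 and Klf3 rose by less and not in every comparison, and Klf15 passed in none. Of the 8 genes tested, 5 rose in chow mannitol hearts, against 8.49% of all genes that changed in either direction and 4.83% that rose. In chow glucose hearts 4 of 8 rose, with 9.5% of all genes changed and 5.47% higher. In sucrose mannitol hearts 7 of 8 rose, with 11.2% of all genes changed and 5.53% higher. In sucrose glucose hearts 5 of 8 rose, with 8.68% of all genes changed and 5.54% higher. None of the 8 fell in any of these comparisons, while 3.65%, 4.04%, 5.67% and 3.14% of all genes did. A gene was called changed at a Benjamini-Hochberg adjusted p below 0.05 in limma's moderated test over all 18333 genes. The median change of the 8 genes was 0.78, 0.78, 0.70 and 0.81 on the log2 scale in the same order, against -0.01, -0.05, -0.04 and -0.03 for all genes. Array ranges did not overlap for 4, 4, 5 and 5 of the 8, against 9.51%, 9.44%, 9.23% and 8.14% of all genes. Genes called higher in all 4 comparisons made up 3.24% of all genes, and 4 of the 8 were among them.

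**Figure D1:**
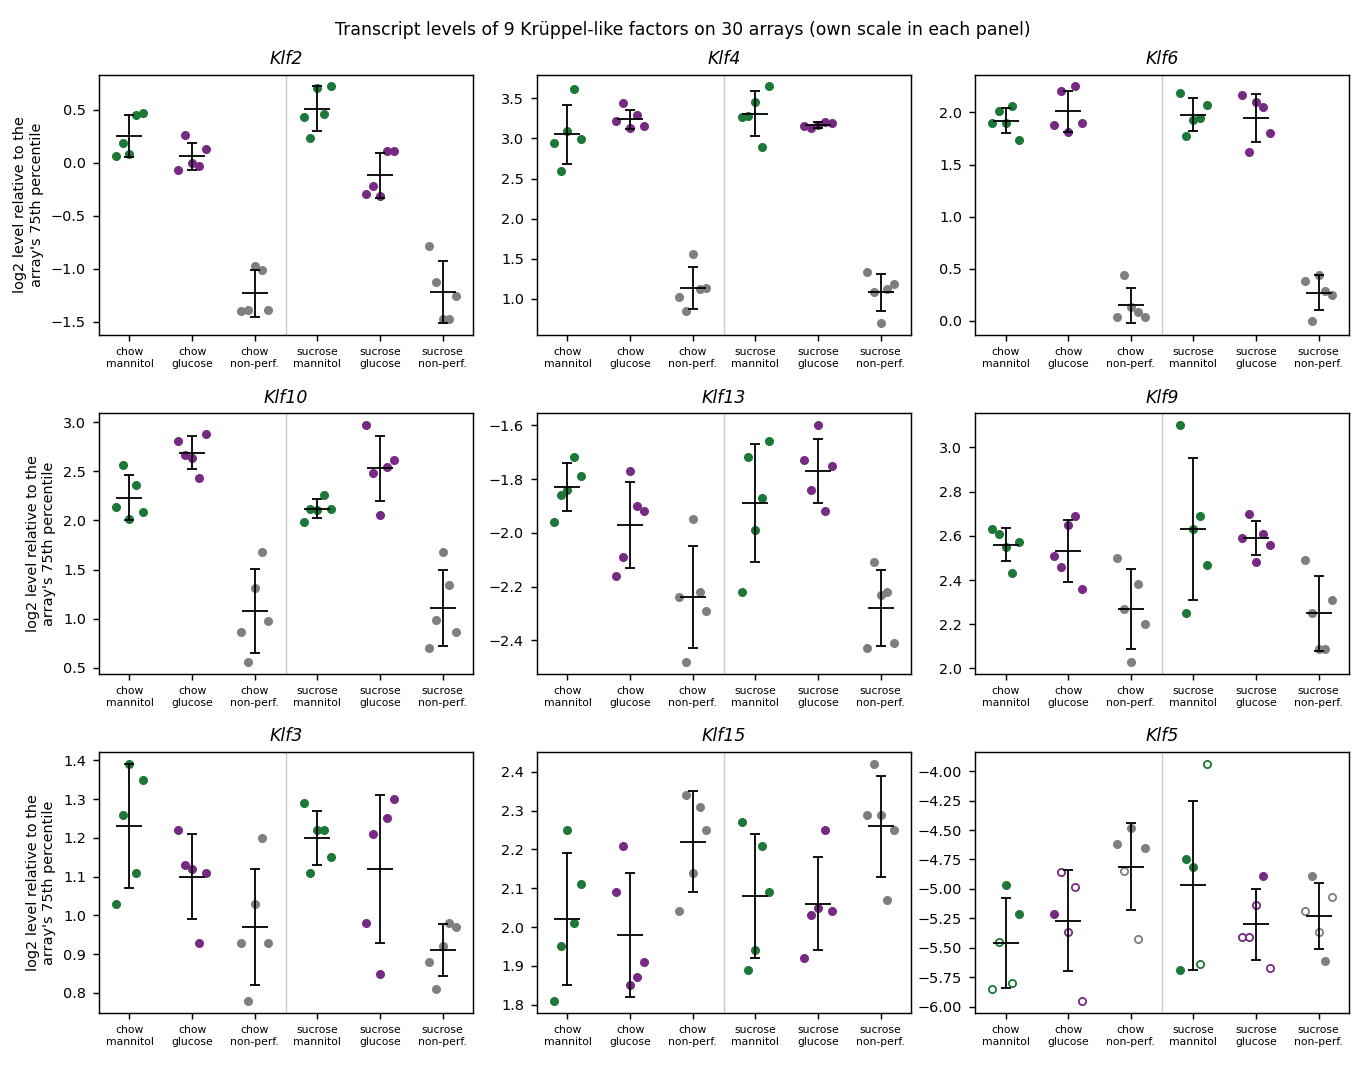
Log2 level relative to the array's 75th percentile for 9 Krüppel-like factors, 1 point per array, by diet and perfusion; bars are the mean and SD of 5 arrays, open points are arrays where the probe was not well above background, and each panel has its own scale. The non-perfused points of Klf2, Klf4, Klf6 and Klf10 lie below all perfused points of their diet, while those of Klf15 overlap them.

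Klf4 had the largest changes of the 8. KLF4 is the factor used in reprogramming cells to pluripotency and is induced by flow in the endothelium. Its log2 levels were 2.95, 2.60, 3.09, 3.62 and 2.99 in chow mannitol hearts and 3.22, 3.44, 3.13, 3.29 and 3.15 in chow glucose hearts, against 1.02, 0.85, 1.56, 1.12 and 1.14 in chow non-perfused hearts. In rats on sucrose they were 3.27, 3.28, 3.46, 2.89 and 3.65 with mannitol and 3.16, 3.13, 3.17, 3.21 and 3.19 with glucose, against 1.33, 1.09, 0.70, 1.12 and 1.18 in non-perfused hearts. The lowest perfused array stood above the highest non-perfused one in both diets, and the sucrose glucose arrays lay closest together, between 3.13 and 3.21. The log2 change was 1.91 (3.77-fold) for chow mannitol, 2.11 (4.31-fold) for chow glucose, 2.23 (4.69-fold) for sucrose mannitol and 2.09 (4.25-fold) for sucrose glucose, each with an SE of 0.15 and n = 5 per group. Adjusted p-values in limma lay between 3.48e-11 and 5.26e-10. Computed within each of the 4 shared slides, all changes were positive and lay between 1.41 and 2.95. In bulk tissue a change of this kind cannot be told apart from a change in the share of cells that carry the transcript.

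KLF6 is an early-response factor known to activate genes of the TGF-beta system. Its levels were 1.90, 2.01, 1.90, 2.06 and 1.74 in chow mannitol hearts and 1.88, 2.21, 1.81, 2.25 and 1.90 in chow glucose hearts, against 0.04, 0.44, 0.13, 0.09 and 0.04 in chow non-perfused hearts. On sucrose they were 2.19, 1.77, 1.93, 1.95 and 2.07 with mannitol and 2.17, 1.62, 2.10, 2.05 and 1.80 with glucose, against 0.38, 0.00, 0.44, 0.29 and 0.25 without perfusion. The lowest perfused array stood at 1.62 and the highest non-perfused array at 0.44. Klf6 rose by 1.78, 1.86, 1.71 and 1.67 in chow mannitol and glucose and sucrose mannitol and glucose hearts (SE 0.11, 3.19- to 3.64-fold). The adjusted p-values lay between 3.59e-12 and 2.93e-11, and the changes within slides between 1.48 and 2.16.

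The windows around an annotated start of Klf4 and Klf6, which rose in all 4 comparisons, and of Klf15, which was not called, are printed to show how their bases differ. RefSeq's promoter table for the rat build GRCr8, which holds 250 bases before and 50 after a gene's start, had entries for 6 of the 9 genes (not for Klf2, Klf10 and Klf13). The windows of Klf5, Klf6 and Klf9 sit at the outer end of the annotated gene, whereas those of Klf3, Klf4 and Klf15 lie inside its span, so that these genes also have a start further upstream. The arrays carry no binding or chromatin data, and the capitals mark only letters found by a search of both strands. Searched were the serum response element (CArG box), the MEF2 site, the cAMP response element TGACGTCA, the AP-1 site TGANTCA, the E-box CACGTG, the GC box GGGCGG, the CACCC box CCACCC, the TATA box TATAAA and the full palindrome of the glucocorticoid response element. No matches of different motifs shared a base in the 6 windows.
Klf4, chr5:75078543-75078842, minus strand: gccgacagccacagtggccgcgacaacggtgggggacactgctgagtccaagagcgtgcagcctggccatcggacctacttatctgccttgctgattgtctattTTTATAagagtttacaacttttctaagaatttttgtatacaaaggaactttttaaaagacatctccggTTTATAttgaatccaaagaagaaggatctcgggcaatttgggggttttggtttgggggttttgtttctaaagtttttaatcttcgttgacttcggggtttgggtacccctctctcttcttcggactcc
Klf6, chr17:69458429-69458728, minus strand: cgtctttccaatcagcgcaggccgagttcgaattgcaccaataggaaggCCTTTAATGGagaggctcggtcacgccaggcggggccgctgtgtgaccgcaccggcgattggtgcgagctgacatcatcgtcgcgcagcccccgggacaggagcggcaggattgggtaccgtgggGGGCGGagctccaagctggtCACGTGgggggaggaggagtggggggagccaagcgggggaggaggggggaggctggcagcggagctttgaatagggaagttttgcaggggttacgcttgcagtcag
Klf15, chr4:124522765-124523064, plus strand: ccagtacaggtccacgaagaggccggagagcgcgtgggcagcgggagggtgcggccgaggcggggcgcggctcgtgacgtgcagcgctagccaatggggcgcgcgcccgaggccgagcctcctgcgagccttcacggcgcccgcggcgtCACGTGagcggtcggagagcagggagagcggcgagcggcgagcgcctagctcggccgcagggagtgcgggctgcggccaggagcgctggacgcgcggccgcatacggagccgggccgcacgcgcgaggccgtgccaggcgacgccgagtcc

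The Klf4 window held TATAAA on the opposite strand at both capital stretches (letters TTTATA), at positions -146 and -78 from the start, a motif found in 14.2% of 33469 rat windows of this length. The Klf6 window held a CArG box at position -201, a GC box at -76 and an E-box at -56. A CArG box, the site of serum response factor, occurred in 1.64% of all windows, the GC box in 33.1% and the E-box in 6.42%. In the Klf15 window the capitals mark an E-box, the site that clock factors bind, at position -101. GC content was 45% for Klf4, 64.7% for Klf6 and 77.3% for Klf15, against a median of 51.7% over all windows. The Klf4 and Klf15 windows lie inside the annotated gene and that of Klf6 at its outer end, so they are unlike regions. Of the windows not printed, that of Klf9 held TGAATCA, an AP-1 match (7.33% of all windows), that of Klf3 held 3 CACCC boxes (29.4% of all windows held any) and a GC box, and that of Klf5 held none of the 9 motifs. The MEF2 site, the TGACGTCA element and the glucocorticoid element, present in 3.29%, 1.83% and 0.0149% of all windows, were not found in these 6.

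Klf2 encodes the flow-induced endothelial factor best known for holding vessels in an anti-thrombotic state. Its levels were 0.06, 0.19, 0.08, 0.45 and 0.47 in chow mannitol hearts and -0.07, 0.26, 0.00, -0.03 and 0.13 in chow glucose hearts, against -1.40, -1.39, -0.97, -1.01 and -1.39 in chow non-perfused hearts. On sucrose the mannitol hearts had 0.43, 0.23, 0.70, 0.46 and 0.72 and the glucose hearts -0.29, -0.22, -0.31, 0.11 and 0.11, against -0.78, -1.12, -1.47, -1.47 and -1.26 in non-perfused hearts. All perfused arrays were above the non-perfused ones, and sucrose glucose had the lowest mean of the perfused groups (-0.12), with arrays that overlapped those of chow glucose. The rise was 1.48 (2.80-fold) with mannitol and 1.29 (2.45-fold) with glucose in chow hearts, and 1.73 (3.31-fold) with mannitol and 1.1 (2.14-fold) with glucose in sucrose hearts (SE 0.13). Adjusted p-values lay between 3.68e-10 and 1.27e-06, and within slides the changes lay between 0.90 and 2.19.

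Klf10 is also called TGF-beta inducible early gene, after the signal that induces it within a short time. It had levels of 2.14, 2.57, 2.01, 2.36 and 2.09 in chow mannitol hearts and 2.81, 2.67, 2.64, 2.43 and 2.88 in chow glucose hearts, against 0.86, 0.56, 1.31, 1.68 and 0.98 in chow non-perfused hearts. On sucrose the values were 1.98, 2.12, 2.11, 2.26 and 2.12 with mannitol and 2.97, 2.48, 2.06, 2.54 and 2.62 with glucose, against 0.70, 0.99, 1.68, 1.34 and 0.86 without perfusion. The groups did not overlap, but the non-perfused arrays spread more widely here, with an SD of 0.43 in chow and 0.39 in sucrose hearts. Klf10 rose by 1.15 and 1.61 with mannitol and glucose in chow hearts and by 1.00 and 1.42 in sucrose hearts (SE 0.18, 2.01- to 3.05-fold). Its adjusted p-values lay between 3.52e-07 and 4.06e-04, and all within-slide changes were positive, between 0.38 and 2.11.

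A second set rose by less. Klf13, known as a partner of GATA4 in heart development, rose by 0.40 in chow mannitol hearts (adjusted p = 0.0115), 0.39 in sucrose mannitol hearts (0.0132) and 0.51 in sucrose glucose hearts (adjusted p = 0.00116). In chow glucose hearts its change was 0.27 (SE 0.10, adjusted p = 0.109), and it passed there without replicate 3 of chow non-perfused (0.34, adjusted p = 0.0375). Its levels ranged from -1.96 to -1.72, -2.16 to -1.77, -2.22 to -1.66 and -1.92 to -1.60 in chow mannitol and glucose and sucrose mannitol and glucose hearts. They ranged from -2.48 to -1.95 in chow and from -2.43 to -2.11 in sucrose non-perfused hearts, so that the groups were apart only in the sucrose glucose comparison. With normexp background correction and with the authors' deposited values Klf13 passed in none of the 4 comparisons, with changes of 0.23 to 0.67 in the 3 that had passed. It also did not pass in sucrose mannitol hearts without the 4 arrays of noisy controls (0.23, adjusted p = 0.249).

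Klf9, a glucocorticoid-induced factor, passed only in sucrose mannitol hearts, with a change of 0.38 (SE 0.11, adjusted p = 0.0273). Its highest array there, 3.10, was replicate 1, which was alone on its slide, and without it the change was 0.26 (adjusted p = 0.102). The call also ended without sucrose non-perfused replicate 3 (adjusted p = 0.0759) or 4 (0.0737) or sucrose mannitol replicate 4 (adjusted p = 0.0591). The other changes were 0.28 (adjusted p = 0.141) in chow mannitol, 0.26 (0.179) in chow glucose and 0.34 (adjusted p = 0.0614) in sucrose glucose hearts. With slide as a fixed block the sucrose glucose change was the same size and passed (adjusted p = 0.0197), while the sucrose mannitol change did not (0.27, adjusted p = 0.0856). Without the block the sucrose glucose change also passed when 1 array was left out, either sucrose non-perfused replicate 1 (0.0322) or sucrose mannitol replicate 1 (0.02) or 2 (adjusted p = 0.0365). Slide accounted for 32.1% of the variance of Klf9 over the 30 arrays, more than for any other of the 9 genes.

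Klf3 encodes a repressor that recruits the corepressor CtBP. It passed only in sucrose mannitol hearts (0.28, SE 0.09, adjusted p = 0.0352), where levels ranged from 1.11 to 1.29 against 0.81 to 0.98 in sucrose non-perfused hearts. Leaving out any 1 of 7 arrays ended that call, at adjusted p-values between 0.0505 and 0.084: replicates 1, 2, 3 and 5 of sucrose non-perfused and replicates 1, 3 and 4 of sucrose mannitol. The changes elsewhere were 0.25 (adjusted p = 0.0786), 0.13 (0.48) and 0.20 (adjusted p = 0.179) in chow mannitol, chow glucose and sucrose glucose hearts. In chow mannitol hearts it passed without chow non-perfused replicate 4 (0.0331) or chow mannitol replicate 1 (adjusted p = 0.0406). A second, dimmer Klf3 probe, above background on 23 of 30 arrays, differed by 0.27, 0.49, -0.28 and 0.04 in chow mannitol and glucose and sucrose mannitol and glucose hearts, so the probes did not give the same sign for the comparison that passed.

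Klf15 was the 1 tested member whose estimates were all below 0. Levels ranged from 1.81 to 2.25 in chow mannitol, 1.85 to 2.21 in chow glucose, 1.89 to 2.27 in sucrose mannitol and 1.92 to 2.25 in sucrose glucose hearts, against 2.04 to 2.34 in chow and 2.07 to 2.42 in sucrose non-perfused hearts. The ranges overlapped in each comparison. Its changes were -0.19, -0.23, -0.18 and -0.21 (SE 0.09), with adjusted p-values between 0.143 and 0.264 and 95% intervals between -0.42 and 0.01. Klf5, which acts in cardiac fibroblasts and in fatty acid control, was well above background on 2, 1, 3 and 1 of 5 chow mannitol and glucose and sucrose mannitol and glucose arrays, against 3 chow and 2 sucrose non-perfused arrays. A second Klf5 probe was above background on 9 of 30 arrays. No change is given for Klf5.

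**Figure D2:**
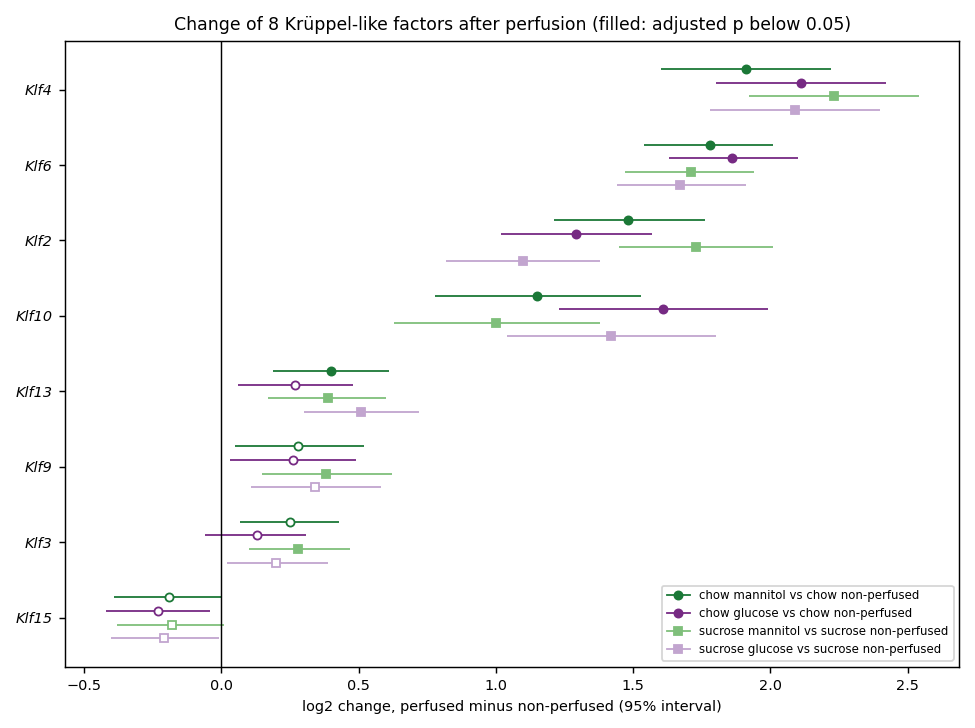
Log2 change of 8 Krüppel-like factors in each perfused group over the non-perfused hearts on the same diet (x axis), with 95% intervals from limma; filled points have an adjusted p below 0.05. Klf4, Klf6, Klf2 and Klf10 lie between 1.00 and 2.23, Klf13, Klf9 and Klf3 between 0.13 and 0.51, and Klf15 between -0.23 and -0.18.

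Being perfused or not accounted for 96.1% of the variance over arrays for Klf6, 94.7% for Klf4, 85.7% for Klf2 and 77.9% for Klf10. The share was 58.7% for Klf13, 45.8% for Klf9, 38.9% for Klf3 and 34.3% for Klf15. Diet accounted for at most 3.14% (Klf15).

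Glucose in the buffer, set against mannitol, gave no called difference. The percentage of all genes called was 0% in chow and 0.00545% in sucrose hearts, and 0 of 8 members passed in limma in either diet. An unadjusted limma p below 0.05 was found for 1 member in chow and 2 in sucrose hearts. Among all tested genes 715 in chow and 928 in sucrose hearts had such a p. The member with the smallest p was Klf2 in sucrose hearts, where the glucose arrays lay between -0.31 and 0.11 and the mannitol arrays between 0.23 and 0.72. The ranges did not overlap, which held for 0.796% of all genes, and glucose was lower on each of the 4 shared slides. The difference was -0.63 (SE 0.13, 95% interval -0.90 to -0.35, 1.55-fold lower), with an adjusted p of 0.491 in limma over all genes. In chow hearts the glucose and mannitol arrays overlapped for all 8 members (0.731% of all genes were without overlap), with a Klf2 difference of -0.19 (interval -0.47 to 0.09, adjusted p = 0.999). The difference between the diets in this effect was -0.44 (interval -0.83 to -0.05, adjusted p = 0.984).

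Klf10 leaned the other way in both diets. Its mean was 2.69 with glucose and 2.23 with mannitol in chow hearts, and 2.53 with glucose and 2.12 with mannitol in sucrose hearts. The differences were 0.45 (interval 0.07 to 0.83, adjusted p = 0.999) and 0.42 (interval 0.04 to 0.79, adjusted p = 0.970), higher on 3 of 4 slides in each diet, and the arrays overlapped. Averaged over diets, Klf10 differed by 0.43 (adjusted p = 0.999) and Klf2 by -0.41 (interval -0.60 to -0.21, adjusted p = 0.999). For the 7 members other than Klf10 in chow and the 7 other than Klf2 in sucrose hearts, differences lay between -0.19 and 0.19 and between -0.14 and 0.42. The 95% intervals of these reached from -0.47 to 0.50 in chow and from -0.45 to 0.79 in sucrose hearts.

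**Figure D3:**
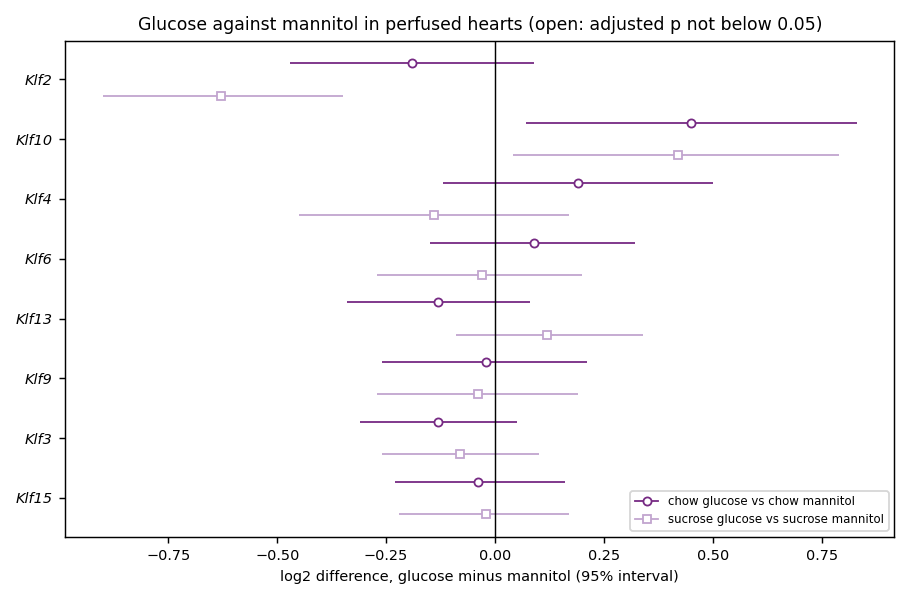
Log2 difference between glucose and mannitol hearts (x axis) for 8 Krüppel-like factors in each diet, with 95% intervals from limma; all points are open because no adjusted p was below 0.05. Klf2 in sucrose hearts (-0.63) and Klf10 in both diets (0.45 and 0.42) have intervals that do not reach 0.

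Diet left no called difference either. In sucrose against chow hearts 0 of 8 members passed without perfusion (0% of all genes), with mannitol (0.00545%) or with glucose (0%), in limma. In the same tests 0 members had an unadjusted p below 0.05, against 612, 1455 and 804 of all tested genes in that order. The smallest p belonged to Klf6 without perfusion (0.13, interval -0.11 to 0.36), to Klf2 with mannitol (0.26, interval -0.02 to 0.53) and to Klf13 with glucose (0.20, interval -0.01 to 0.41). Averaged over the 3 states, 0.00545% of all genes and 0 members passed, with Klf15 at 0.06 (interval -0.05 to 0.17, adjusted p = 0.870) as the smallest p. The response to perfusion was also not called different between diets for any member, with 0% of all genes called in either interaction. Klf4 had the smallest p for mannitol perfusion (0.31, interval -0.12 to 0.75, adjusted p = 0.877), and Klf13 for glucose perfusion (0.24, interval -0.06 to 0.54, adjusted p = 1).

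Of the 8 other KLF genes looked for, 5 were on the array under these names and 4 were tested. Klf16, known mainly as a repressor, rose by 1.88, 1.93, 1.67 and 1.72 in chow mannitol and glucose and sucrose mannitol and glucose hearts (SE 0.09), with means of 1.94, 1.99, 1.81 and 1.86, against 0.06 in chow and 0.13 in sucrose non-perfused hearts. The arrays did not overlap, and the adjusted p-values lay between 7.58e-15 and 2.6e-13. Klf12 passed only in sucrose mannitol hearts (1.47, adjusted p = 0.0415), where the arrays overlapped and changes within slides lay between 0.18 and 4.32. It was above background on 22 of 30 arrays and met the filter only through perfused groups. Klf11 and Klf14 did not pass in any of the 4. Klf1, the red cell factor, was above background on 17 arrays and was not tested. Among the related SP factors, 5 of 9 were tested, and Sp1, which binds the same GC boxes, fell by 0.32, 0.35 and 0.32 in chow mannitol, chow glucose and sucrose mannitol hearts (adjusted p = 0.0229, 0.00964 and 0.0192). In sucrose glucose hearts Sp1 stood at -0.15 (adjusted p = 0.35).

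The genes whose 6 group means came nearest to those of a member, each centred on its own mean, were picked by root mean square difference among tested genes with a symbol. For Klf6 they were Epha2 (0.059), Ccnl1 (0.063) and Klf16 (0.066), and for Klf4 Areg (0.062), Dusp1 (0.066) and Mcl1 (0.082), all in log2 units over 6 groups. Klf10 lay nearest Vcam1 (0.070), Mat2a (0.071) and Snai1 (0.11). Klf2 had no gene as near, with Bcl6b at 0.14, Kctd4 at 0.15 and Nuak2 at 0.16. For Klf13 the nearest were Nup153, Pcgf2 and Ly86 (0.024 to 0.040), for Klf9 Fgfr1, Bin1 and Npr1 (0.020 to 0.022) and for Klf3 Spidr, P2rx6 and Msn (0.020 to 0.024). The distances of these last 3 members are on a smaller range of group means and are not comparable with those of the first 4.

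**Figure D4:**
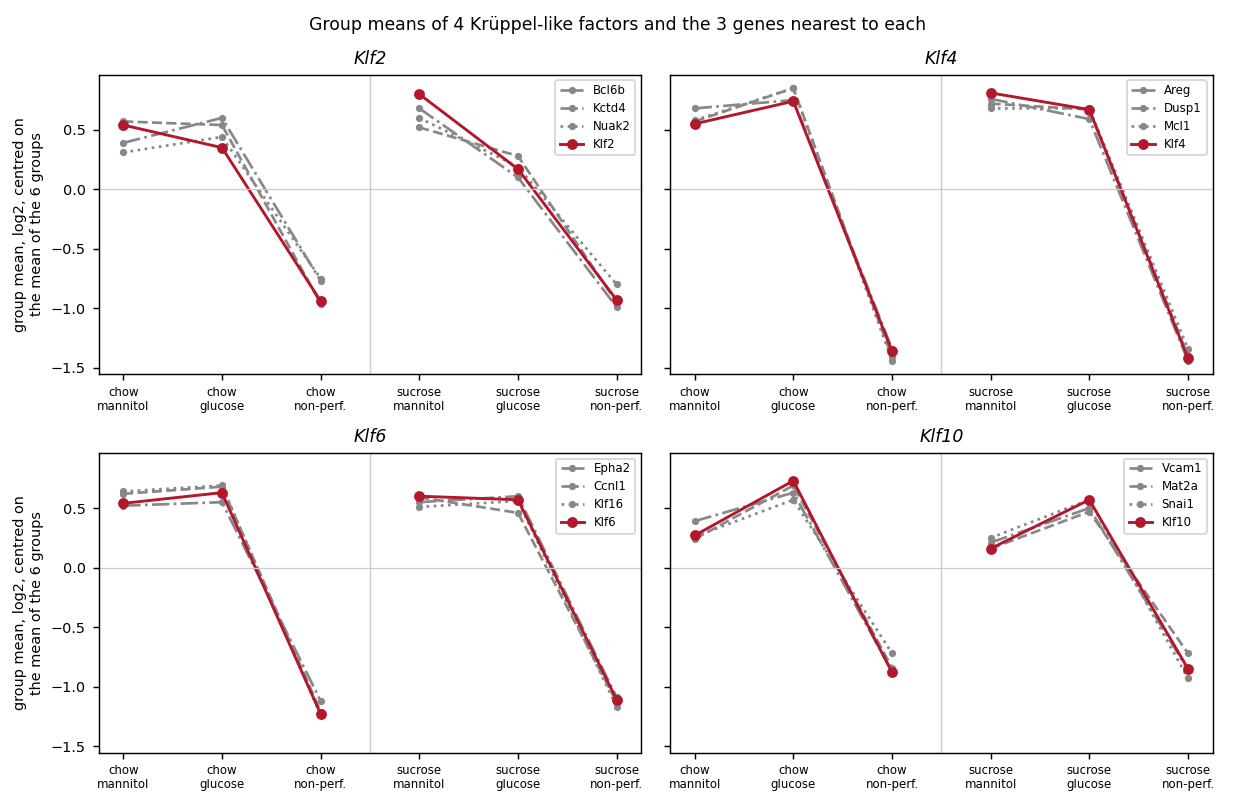
Group means (log2, each gene centred on its mean over the 6 groups) of Klf2, Klf4, Klf6 and Klf10 in red and of the 3 nearest genes of each in grey, by diet and perfusion; lines only join the groups of a diet. Klf4 stands at -1.36 in chow and -1.42 in sucrose non-perfused hearts, and Klf6 at -1.23 and -1.11. The grey genes were picked for nearness over these same means, so their closeness is no separate result.

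Genes known to lie downstream of KLF2 and KLF4 in the endothelium were read from a list of 12, of which 11 were tested. Of these, 4 rose in chow mannitol hearts and 5 in each of the other 3 comparisons, and none fell. Of all genes, 4.83%, 5.47%, 5.53% and 5.54% rose and 3.65%, 4.04%, 5.67% and 3.14% fell in the 4 comparisons. These shares apply to each list and marker count below, and 1 call in a list is not read as a result about that list. The median change was 0.47, 0.66, 0.51 and 0.53 in chow mannitol and glucose and sucrose mannitol and glucose hearts. Nos3, the endothelial nitric oxide synthase that KLF2 is known to activate, rose by 0.61, 0.66, 0.51 and 0.51, and the sphingosine receptor gene S1pr1 by 0.47, 0.89, 0.61 and 0.65. The adhesion gene Vcam1, which KLF2 is known to restrain, also rose in all 4, by 1.08, 1.53, 0.88 and 1.19. Thrombomodulin (Thbd) rose by 0.51, 0.51 and 0.53 in chow glucose, sucrose mannitol and sucrose glucose hearts and stood at 0.21 (adjusted p = 0.48) in chow mannitol hearts. The vasoconstrictor gene Edn1 passed in 3 comparisons, with fitted changes of 1.02 to 1.05, but was well above background on only 18 of 30 arrays. It met the filter through chow mannitol hearts alone, a perfused group, so its calls support nothing by themselves. The counts of those 3 comparisons include Edn1. The gene of tissue factor (F3) passed in sucrose glucose hearts (0.89). The list thus holds risers that KLF2 is known to induce and risers that it is known to repress. Tek, Eng, Ace, Ass1 and Sele passed in none. The count for sucrose mannitol hearts was 3 without replicate 2, 3 or 5 of sucrose non-perfused or replicate 2 of sucrose mannitol, and 2 with normexp correction or the authors' deposited values.

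Of 12 genes of the MEK5-ERK5-MEF2 and class IIa histone deacetylase list, 8 were tested (not Mapk7, which encodes ERK5), and 1, 2, 1 and 1 rose and none fell in chow mannitol and glucose and sucrose mannitol and glucose hearts. Map3k2, the kinase that activates MEK5, rose by 0.69, 0.68, 0.60 and 0.76 over the same comparisons (SE 0.14), and Hdac5, a deacetylase that binds MEF2, rose in chow glucose hearts (0.34, adjusted p = 0.0018). Median changes lay between 0 and 0.06. With 8 genes, 1 call is near the 8.49% to 11.2% of all genes that changed in either direction, so no result about the pathway is read from it. Map3k2 was above background on 23 of 30 arrays.

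Of 6 tested endothelial marker genes, 1 (Flt1, a VEGF receptor) passed in each comparison, and Pecam1, Cdh5, Kdr, Tie1 and Emcn did not. The summed level of the 6, in units of the array's 75th percentile, ranged over 35.3 to 38.4, 33.5 to 44.6, 31.8 to 37.0 and 30.2 to 40.9 in chow mannitol and glucose and sucrose mannitol and glucose hearts. It ranged over 31.5 to 41.9 in chow and 32.8 to 37.7 in sucrose non-perfused hearts, so these sums overlapped. Kdr, with mean log2 levels of 4.44 to 4.71 over the 6 groups, weighs most in the sum. Flt1, at -2.16 to -1.32, adds little to it. The sum therefore does not measure the share of endothelial cells.

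Blood markers moved with perfusion. In each comparison 4 of 5 tested red cell genes fell, and the summed level of the 5 ranged over 7.97 to 76.9, 7.09 to 20.5, 5.67 to 18.0 and 6.54 to 11 in chow mannitol and glucose and sucrose mannitol and glucose hearts, against 427 to 624 in chow and 431 to 690 in sucrose non-perfused hearts. Of 3 tested neutrophil genes, S100a8 and S100a9 were called lower in each comparison. S100a8 was well above background on 0 of 5 arrays in each perfused group, against 4 chow and 3 sucrose non-perfused arrays. S100a9 was so on 0, 0, 2 and 1 arrays of the perfused groups, against 5 and 5. Both met the filter through the non-perfused hearts, where they are high, so that count supports nothing by itself. Macrophage genes rose for 3 of 5 in sucrose mannitol and 2 of 5 in sucrose glucose hearts, and for 0 of 5 in both chow comparisons. With mannitol and glucose, Adgre1 changed by 0.51 and 0.54 in chow hearts (adjusted p = 0.0802 and 0.0532 in limma) and by 0.65 and 0.73 in sucrose hearts. Mrc1 changed by 0.34 and 0.34 in chow and by 1.55 and 1.18 in sucrose hearts. In sucrose non-perfused hearts Mrc1 had a mean of -5.03 and was well above background on 3 of 5 arrays, so the size of its sucrose changes is uncertain. Cd68 and Csf1r passed in none of the 4. No macrophage gene was called in a diet by perfusion interaction, so a difference between diets is not established. Fibroblast genes rose for 1, 2, 2 and 2 of 6 in chow mannitol and glucose and sucrose mannitol and glucose hearts. Of 7 cardiomyocyte genes none rose and 1, Pln, fell in sucrose mannitol hearts while all 7 were above background on all arrays. Of the 4 genes in the atrial list only Gja5 was called, with falls of 1.37, 1.35, 1.34 and 1.15. Nppa, Myl7 and Sln passed in none of the 4 comparisons, so the fall of Gja5 is not read as a change in atrial tissue. Smooth muscle genes rose for 0, 0, 0 and 1 of 6, and lymphocyte genes rose for 0, 1, 1 and 1 and fell for 1, 1, 1 and 1 of 3. The lymphocyte gene that fell, Cd79b, was above background on 0 of 5 arrays in each perfused group, against 4 chow and 3 sucrose non-perfused arrays. It met the filter only through chow non-perfused hearts, where it is high, so its fall supports nothing by itself. Likewise Cnn1 and Cd2, the smooth muscle and lymphocyte genes that rose, met the filter only through perfused groups. Platelet genes fell for 1, 1, 0 and 0 of 2, and the 1 adipocyte gene tested did not pass, over the same 4 comparisons. The part of these cells in the changes of the Krüppel-like factors was not tested.

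Of 9 metabolic and channel genes that KLF15 is known to induce, 8 were tested. Kcnip2, a potassium channel subunit, rose in chow mannitol (0.34, adjusted p = 0.039) and chow glucose hearts (0.40, adjusted p = 0.0129), and the others, among them Bcat2, Slc2a4 and Acadm, did not pass. The median change lay between -0.07 and 0.03. Of 5 tested growth and fibrosis genes that KLF15 is known to restrain, Ccn2, a matrix protein gene, rose by 2.02, 1.75, 2.21 and 1.93 in chow mannitol and glucose and sucrose mannitol and glucose hearts (SE 0.27, 3.36- to 4.62-fold). The natriuretic peptide gene Nppb rose in chow mannitol and chow glucose hearts (1.29 and 1.27) and did not pass in sucrose hearts (0.92 with mannitol, adjusted p = 0.077, and 1.00 with glucose, adjusted p = 0.063). Nppa, Gata4 and Myocd passed in none.

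**Figure D5:**
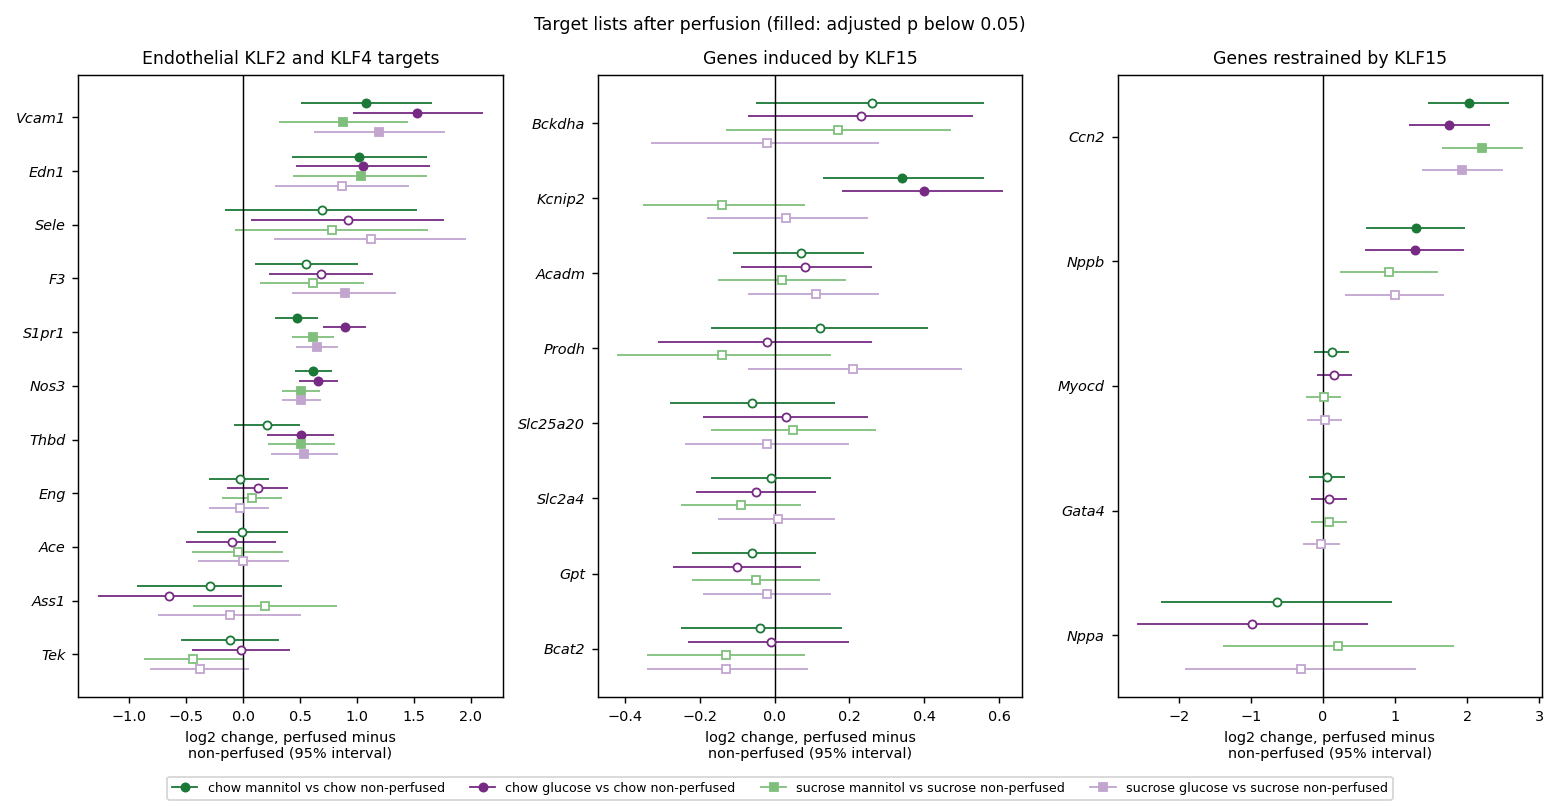
Log2 change of each perfused group over the non-perfused hearts on the same diet (x axis), with 95% intervals, for tested genes of the endothelial KLF2 and KLF4 target list (left), the list induced by KLF15 (centre) and the list restrained by KLF15 (right); filled points have an adjusted p below 0.05 and the scales differ. Vcam1 lies between 0.88 and 1.53 and Ccn2 between 1.75 and 2.21, and most genes induced by KLF15 lie around 0.

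For KLF6 and KLF10, 11 of 14 TGF-beta early genes were tested, and 4, 5, 5 and 5 rose in chow mannitol and glucose and sucrose mannitol and glucose hearts, with none lower. Ccn2 belongs to this list too. The others that rose in all 4 were the corepressor genes Tgif1 (1.38, 1.40, 1.42 and 1.32) and Tgif2 (1.00, 1.04, 0.99 and 0.81) and the ligand gene Tgfb1 (0.61, 0.70, 0.78 and 0.58). Id2 rose with glucose in both diets (0.75 in chow, 0.64 in sucrose hearts), and Smad7, the inhibitory Smad, in sucrose mannitol hearts (0.65). Tgfb2, Tgfb3, Id1, Id3 and Pmepa1 passed in none.

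For KLF9 and KLF15, all 12 glucocorticoid-responsive genes were tested, and 6, 5, 5 and 5 rose while 1, 1, 2 and 1 fell in the same order. Over the same comparisons the phosphatase gene Dusp1 rose by 2.02, 2.10, 2.20 and 2.03, and Errfi1, an EGF receptor inhibitor, by 1.96, 2.43, 2.01 and 2.14. The kinase gene Sgk1 rose by 1.39, 1.65, 1.39 and 1.20, the metallothionein gene Mt2A by 1.70, 1.98, 1.72 and 1.83, and Nfkbia, which encodes an NF-kB inhibitor, by 0.59, 0.75, 0.47 and 0.72. Per1 rose in chow mannitol hearts (0.59). Ddit4, whose protein restrains mTOR, fell by 0.60, 0.45, 0.44 and 0.45 in chow mannitol and glucose and sucrose mannitol and glucose hearts. Pik3r1 fell by 0.33 in sucrose mannitol hearts. Tsc22d3, Fkbp5, Zbtb16 and Cdkn1a passed in none. In sucrose mannitol hearts 7 genes of the list were called, and 4 without sucrose mannitol replicate 2. Clock genes, which are known to drive daily cycles of Klf9, Klf10 and Klf15, rose for 6, 4, 4 and 5 of 15 tested and fell for none. The repressor genes Bhlhe40 (1.46, 1.57, 1.39 and 1.53) and Nfil3 (0.81, 1.20, 1.08 and 0.86) rose in all 4, without overlap of the arrays. Ciart was also called higher in all 4, with fitted changes of 3.31, 2.93, 2.92 and 3.60 (SE 0.77). Ciart was well above background on 5 of 5 arrays of each perfused group but on 2 of 5 of each non-perfused group, so its size is uncertain, and the arrays overlapped. It met the filter only through the perfused groups, where it is high, so its calls support nothing by themselves. The clock counts of all 4 comparisons include Ciart. Per2 and Cry2 passed in 3 comparisons each and Per1 in chow mannitol hearts. The clock count was 8 in sucrose glucose hearts without sucrose non-perfused replicate 1. It was 2 in chow mannitol hearts with the authors' deposited values and 2 in chow glucose hearts with normexp correction.

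Of 6 genes known as KLF5 targets, Pdgfb rose in chow mannitol (0.85), sucrose mannitol (0.63) and sucrose glucose hearts (0.59), and Birc5, an inhibitor of apoptosis, fell by 0.60, 0.57 and 0.54 in chow mannitol, chow glucose and sucrose glucose hearts. Pdgfb was well above background on 3 of 5 sucrose non-perfused arrays and Birc5 on 3 of 5 chow glucose arrays, so these sizes are uncertain. Igf1 fell by 0.42 and 0.52 in chow mannitol and chow glucose hearts. Of 12 tested cofactors and ubiquitin ligases of the family, Hdac1 rose in chow glucose (0.32) and sucrose mannitol hearts (0.34), and Ctbp1, a partner of KLF3, fell by 0.36 in sucrose glucose hearts.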

How the data were processed

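Left ventricular RNA of 30 rats was hybridised to one-colour (Cy3) Agilent arrays, 1 per rat. The deposited scanner files hold the intensity of 62976 spots each. Per the file headers, Feature Extraction 11.0.1.1 subtracted background and detrended each array, and no step between arrays is named, while the submitters' processing notes name version 10.3. The authors' deposited series table holds log2 values. Its columns share nearly the same quantiles (medians 7.23 to 7.24), and how it was scaled is not given in the sources used here.

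Spots of a probe were averaged without outlier flags, and the log2 value was set against the 75th percentile of its array. Probes were named from their accessions through RefSeq (18355 of 30367 matched), and the brightest probe stood for a gene. Testing required a signal well above background on 4 or 5 arrays of some group, which kept 18333 of 26785. The fit was limma 3.58.1 in R 4.3.3 with 6 group means, p-values from its moderated tests and Benjamini-Hochberg adjustment over all tested genes in each of 14 comparisons, at a threshold of 0.05, with 95% intervals. The number of arrays limits the precision. The settings were tested on simulated data drawn as independent arrays, without slides. Of 50 genes each raised by 0.5, 1 and 2 in chow mannitol arrays, 40%, 78% and 90% were called, and 84% of 50 lowered by 1. Of unchanged genes 0.0496% were called. The unchanged genes numbered 18133 of 18333. In the data 1556 to 2054 genes were called in the perfusion comparisons, and 0 or 1 in those of glucose and diet. The adjusted p depends on how many genes change, so the simulated rates apply directly to neither kind. Changes of 0.5 or less can be missed often, and where few genes change larger ones can be missed too.

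The 9 genes and all gene lists were chosen with earlier results of these data known. Genes were named by rule: all 9, other KLF or SP genes that passed, in each list the called gene with the largest rise and fall in each perfusion comparison, the 3 nearest genes in group means, and for glucose and diet the smallest p where none passed. Further list genes were named after their values were seen. The replicate numbers give no pairing: the mean residual correlation was -0.037 between arrays of equal number, 0.01 between unequal ones and 0.204 within a slide. A gene of the endothelial and TGF-beta lists and one of the lymphocyte list are not reported here, and counts and medians are over the others. The alternatives were other normalizations and background correction, the authors' values, other filters, the mean of a gene's probes, slide or replicate number as block, only the groups compared, and leaving out arrays. Figures were drawn with matplotlib 3.10.9.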

Additional observations from a re-analysis of the deposited data

Results flagged for a closer look

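Klf6 in chow non-perfused replicate 2 had a log2 level of 0.44, above the other 4 arrays of its group, which lay between 0.04 and 0.13. The gap took 0.775 of the group's range, past Dixon's 95% critical value of 0.71 for 5 arrays. It was the 1 outlying array found in 54 sets of 5 (9 genes in 6 groups), and chance gives about 1 in 20. This array was among the 4 with noisy negative controls. Without it Klf6 rose by 1.85 in chow mannitol and 1.94 in chow glucose hearts, against 1.78 and 1.86 with it. The part of the noise in that level was not tested.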

How the results depend on the processing

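Klf2, Klf4, Klf6 and Klf10 kept their direction and passed in all 4 perfusion comparisons under each of 42 alternatives, with lowest changes of 0.90, 1.77, 1.61 and 0.78. The count of members called in sucrose mannitol against sucrose non-perfused hearts was 7, but 4 with normexp background correction, 4 with the authors' deposited values, and 5 without the array alone on its slide or without the 4 arrays of noisy controls; the cause was not tested. Leaving out 1 array gave 5 to 6, 4 to 5, 5 to 7 and 5 to 6 members in chow mannitol and glucose and sucrose mannitol and glucose hearts, and 0 in every glucose, diet and interaction comparison. With slide as a fixed block the counts were 5, 5, 5 and 6: it ended the calls of Klf3 (0.26, adjusted p = 0.0816) and Klf9 (0.27, adjusted p = 0.0856) in sucrose mannitol hearts and gave calls for Klf13 in chow glucose (adjusted p = 0.0407) and Klf9 in sucrose glucose hearts (0.0197). Fitting only the groups compared ended those of Klf9 (adjusted p = 0.201) and Klf13 (0.0984) in sucrose mannitol hearts. With the replicate block the counts were 5, 4, 6 and 6. That block ended the call of Klf3 in sucrose mannitol hearts (adjusted p = 0.0544), gave one for Klf9 in sucrose glucose hearts (0.0489), and changed no other call of a member. The Klf3 change in sucrose mannitol hearts turned to 0 (adjusted p = 1) with the mean of its probes, and the Klf6 difference between sucrose and chow non-perfused hearts to -0.02 with the authors' values. Those values shifted the median of all genes by -0.105 in chow glucose and 0.103 in sucrose glucose hearts, and called 361, 421, 413 and 447 genes in the 4 perfusion comparisons, of which 86.1%, 72.0%, 88.9% and 91.7% were higher, against 1556, 1742, 2054 and 1592 genes and 56.9%, 57.5%, 49.4% and 63.8%. Normexp called 843, 969, 967 and 848. In the lists, the counts for endothelial targets ranged from 2 to 6 over all alternatives and comparisons, and those for TGF-beta genes from 3 to 5. Glucocorticoid counts ranged from 4 to 7 and clock counts from 2 to 8, and counts of 0 to 3 in the other lists often moved by 1. Hdac1 in chow glucose and Birc5 in sucrose glucose hearts lost their call under 23 of 42 and 22 of 41 alternatives, Klf12 and Ddit4 in sucrose mannitol hearts under 14 and 15 of 42, and Kcnip2 in chow mannitol hearts under 10 of 42. Dim probes limit Klf5, and among the called genes at least Klf12, Map3k2, Edn1, Ciart, Mrc1, Pdgfb and Birc5.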
